A study of Mus musculus with 12 samples.

Results

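Of the 1719 ZFAT peaks called in thymocytes of mice with floxed Zfat alleles, 443 (25.8%) shared at least 1 bp with an H3K9ac/K27ac peak called in the same line. These 443 regions are the ZFAT peaks inside acetylated chromatin, and the remaining 1276 floxed ZFAT peaks lay outside it. The choice used the positions of the floxed ZFAT and floxed H3K9ac/K27ac peaks, so the values of those lists are given as a description, and the peak lists of other libraries carry the comparisons. ZFAT is a nuclear protein with zinc fingers and an AT-hook that binds DNA and is known for its part in T cell development and survival. Acetylation of lysines 9 and 27 of histone H3 marks active promoters and enhancers, and trimethylation of lysine 9 (H3K9me3) marks silent chromatin. Thymocytes are the T lineage cells that mature in the thymus.

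The study profiled ZFAT, H3K9ac/K27ac and H3K9me3 by ChIP-seq, with a monoclonal antibody for ZFAT and 1 antibody for the acetyl marks together. Lck-Cre thymocytes came from Zfat f/f mice that also carry Cre under the T lineage Lck promoter, and gave 108 ZFAT peaks and 2225 H3K9ac/K27ac peaks. B6 thymocytes came from C57BL/6 mice with unaltered Zfat, and their 1 ZFAT library gave 2000 peaks when called against input and 427 when called against IgG. Floxed thymocytes (Zfat f/f without Cre) gave the 1719 ZFAT peaks, 13016 H3K9ac/K27ac peaks and 2388 H3K9me3 peaks. Floxed Zfat alleles were shared by the Lck-Cre and floxed mice. All mice were 4 to 5 weeks old, and in each line cells were fixed with 1% formaldehyde, digested with micrococcal nuclease and sonicated. How far Zfat was deleted in the Lck-Cre cells is not measured by a peak list. Each ChIP group held 1 library, so differences between conditions are differences between libraries and no p-value is given. Positions are in mm9. No gene annotation of that build was used here, so the regions are named by position and the labelled cell type was not checked against marker genes.

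Each peak comes with the authors' fold (ChIP over local background) and P score (−log10 p), which has a ceiling of 323. The number of fragments at the summit (pileup) and the control background there were inferred from these values. The inferred depths were 1350000 fragments for Lck-Cre ZFAT, 632000 for B6 ZFAT and 1508000 for floxed ZFAT. For H3K9ac/K27ac they were 1343000 fragments in Lck-Cre and 2191000 in floxed thymocytes, and H3K9me3 had 2234000. The 95% intervals are exact Clopper-Pearson intervals for shares and order-statistic intervals for medians, and they cover counting error only.

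The 443 peaks were a graded set with few very strong regions and many small ones. Their floxed P scores had a median of 9.62 (95% interval 9.20 to 10.2), and 233 of them were under 10. Another 142 lay from 10 to 20, 38 from 20 to 50, and 30 at 50 or more. Of the 23 floxed ZFAT peaks at the P ceiling, 19 were among them. The median fold was 5.53 inside acetylated chromatin and 5.35 outside. The fragments behind these similar folds differed, with a median pileup of 14 inside (quartiles 12 and 18, over the 424 peaks below the P ceiling) and 7 outside (5 and 11, over 1272). Only 67 of the 443 rested on 10 fragments or fewer, against 904 of the other 1276.

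The control background moved with this. Below the P ceiling its median was 2.04 scaled fragments inside acetylated chromatin and 0.204 outside. It stood at the lowest value of the library in 13 peaks inside (2.93%, 95% interval 1.57% to 4.97%) and in 565 outside (44.3%). Thus at a like fold the peaks inside acetylated chromatin held more ChIP fragments over a higher control. Only 1 of the 443 had a control background of 20 or more. Over the 424 peaks inside acetylated chromatin, pileup and control background had a Spearman correlation of 0.59, given as a description since both come from the same fold and P score. The part of the control in the overlap with acetylation was not tested.

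**Figure D1:**
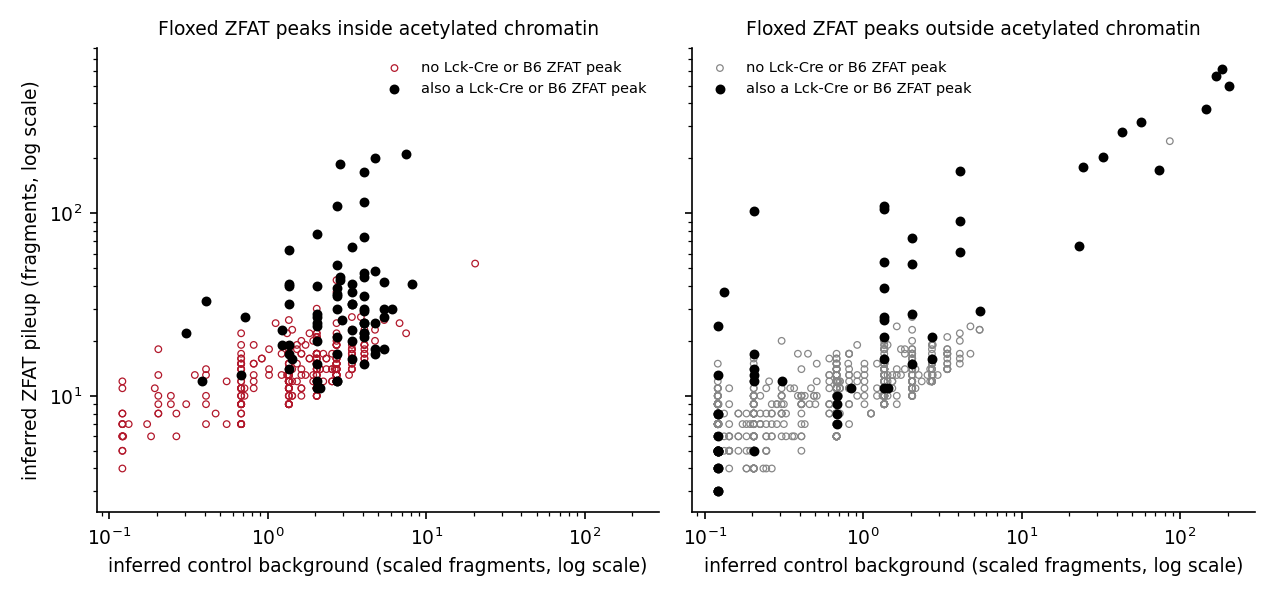
Inferred ZFAT pileup at the summit (fragments, log scale) against inferred control background (scaled fragments, log scale) for floxed ZFAT peaks below the P ceiling, 424 inside acetylated chromatin (left) and 1272 outside (right). Filled points also had a Lck-Cre or B6 ZFAT peak. The peaks inside sit mostly at backgrounds near the median of 2.04, and many of those outside sit at the library minimum.

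The ZFAT peaks and the acetylation peaks were close to each other in position. The ZFAT summit lay inside the acetylation peak in 434 of the 443, and 294 (66.4%) lay in acetylation over their whole length. The distance between the ZFAT summit and the nearest acetylation summit was at most 50 bp in 273 peaks (61.6%, 95% interval 56.9% to 66.2%) and at most 10 bp in 98. It was over 200 bp in 75 peaks. Since the members were chosen by overlap, short distances follow in part from the choice. Peaks of other lists chosen by overlap with the same acetylation peaks are given beside them as values only. The median summit distance was 46.5 bp for 20 Lck-Cre ZFAT peaks, 36.5 bp for 384 B6 peaks called against input and 33 bp for 131 called against IgG, beside 32 bp for the 443 floxed peaks. For the 105 H3K9me3 peaks that meet acetylation it was 21 bp.

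Few peaks lay near the boundary of the set. The shortest overlaps were 28 bp at chr15:99803000-99803351, 46 bp at chr14:35315177-35315373 and 61 bp at chr11:75025756-75025909. Their floxed ZFAT folds were 8.09, 9.89 and 3.95, and none of them had a Lck-Cre or B6 ZFAT peak. Just outside were chr8:23817067-23817216, with a gap of 82 bp to acetylation and a fold of 9.50, chr3:51908997-51909158 with a gap of 99 bp and a fold of 7.81, and chr8:109554907-109555076 with a gap of 170 bp and a fold of 6.95. These had no Lck-Cre or B6 ZFAT peak either. Only 2 of the 1276 peaks outside lay within 150 bp of an acetylation peak, 23 lay within 1000 bp, and the median gap was 88021 bp.

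ZFAT peaks of the other libraries were found more often at the peaks inside acetylated chromatin than at those outside. Of the 443, 89 (20.1%, 95% interval 16.5% to 24.1%) had a B6 peak called against input, against 53 of the 1276 outside (4.15%, 3.13% to 5.40%) and 8.26% of all floxed ZFAT peaks. With IgG as the control, 69 (15.6%, 12.3% to 19.3%) had a B6 peak, against 22 outside (1.72%, 1.08% to 2.60%) and 5.29% of all. Peaks of both B6 lists met 65 members and 17 peaks outside, or 4.77% of all floxed peaks. A Lck-Cre ZFAT peak was present at 19 members (4.29%, 2.60% to 6.62%) and at 12 peaks outside (0.94%, 0.49% to 1.64%), with 1.80% over the whole list. For each of these 3 lists the intervals inside and outside did not overlap. The Lck-Cre share depended on the choice of members and of peaks. With at least 50% of the ZFAT peak covered by acetylation it was 12 of 425 (2.82%, 1.47% to 4.88%), which overlaps the interval outside. Without peaks of high control background (20 or more) the share outside was 7 of 1265 (0.55%).

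Peak strength moved with the setting, so the shares were set side by side within bands of floxed P score. Under a score of 10, 14 of 233 peaks inside (6.01%) and 15 of 805 outside (1.86%) had a B6 peak called against input. From 10 to 20 it was 20 of 142 inside (14.1%, 95% interval 8.82% to 20.9%) and 9 of 425 outside (2.12%, 0.97% to 3.98%). From 20 to 50 it was 25 of 38 inside (65.8%, 48.7% to 80.4%) and 9 of 25 outside (36.0%, 17.97% to 57.5%). At 50 or more it was 30 of 30 inside and 20 of 21 outside. The share inside was the higher in all 4 bands, and the intervals separated in the 2 lower bands and overlapped in the 2 upper ones. Peaks called against IgG gave the same order, with 15 of 142 inside (10.6%) and 1 of 425 outside (0.24%) at scores from 10 to 20, and 22 of 38 inside (57.9%) and 6 of 25 outside (24.0%) from 20 to 50. At 50 or more it was 29 of 30 inside (96.7%, 82.8% to 99.9%) and 12 of 21 outside (57.1%, 34.0% to 78.2%), with separate intervals. Over all bands, the peaks outside had 22 matches against IgG both among all 1276 and among the 1265 without a control background of 20 or more. None of the peaks outside with such a high background thus had an IgG match. The bands were not recomputed without them. For Lck-Cre ZFAT peaks the intervals overlapped at like strength, with 19 of 30 inside (63.3%, 43.9% to 80.1%) and 11 of 21 outside (52.4%, 29.8% to 74.3%) at 50 or more. Below a score of 50, 0 members and 1 peak outside had one.

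Bands of pileup, added after the data were seen, gave a narrower gap for B6 peaks called against input. With 10 to 19 fragments, 17 of 286 peaks inside (5.94%, 3.50% to 9.35%) and 10 of 401 outside (2.49%, 1.20% to 4.54%) had one. With 20 to 49 fragments the numbers were 42 of 76 inside (55.3%, 43.4% to 66.7%) and 8 of 23 outside (34.8%, 16.4% to 57.3%). Under 10 fragments there were 0 of 50 inside (3 counts would be 6.00%, and the exact interval reaches 7.11%) and 13 of 828 outside (1.57%), so no order can be read. For this list the intervals inside and outside overlapped in every band of pileup. For B6 peaks called against IgG they overlapped up to 49 fragments and separated at 50 or more or at the ceiling, with 30 of 31 inside (96.8%, 83.3% to 99.9%) and 12 of 24 outside (50.0%, 29.1% to 70.9%). Peaks outside with a high control background, none with a B6 peak called against IgG, were not left out of these bands.

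**Figure D2:**
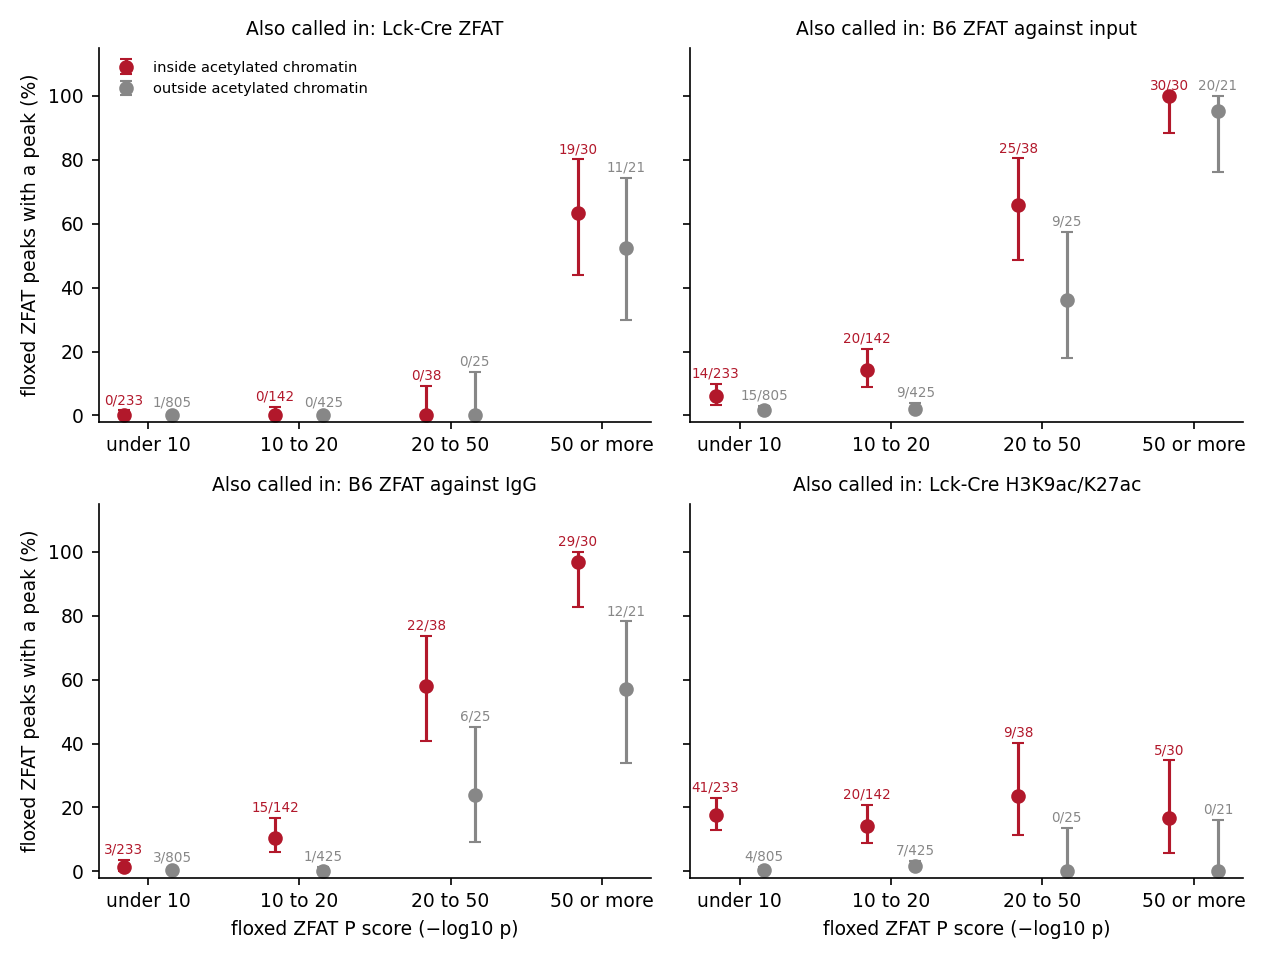
Percent of floxed ZFAT peaks with a peak in each other list, by band of floxed P score (−log10 p), for peaks inside acetylated chromatin (red, left of each pair) and outside (grey). Bars are exact 95% intervals and the labels give peaks with a match over peaks in the band. B6 shares climb with the score in both groups, and Lck-Cre ZFAT peaks appear almost only at scores of 50 or more.

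The 443 regions fell into 4 classes by the ZFAT peaks of the other libraries. In 19 a Lck-Cre ZFAT peak was present, and all of these also had peaks of both B6 lists and a floxed P score at the ceiling. Another 46 had peaks of both B6 lists without a Lck-Cre peak, 28 had a peak of 1 B6 list (24 against input and 4 against IgG), and 350 had no other ZFAT peak. In this order the median floxed ZFAT fold was 156, 9.50, 5.59 and 5.35. The median ZFAT peak length was 899, 331, 248.5 and 201.5 bp. ZFAT strength thus followed the classes closely.

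By P score and fold, acetylation strength did not follow the classes. The median P score of the acetylation peak was 38.0, 42.1, 40.8 and 38.0 in the same order, and the median acetylation fold was 11.1, 9.70, 9.85 and 10.4. Over all 443 regions, the P scores of ZFAT and of acetylation had a Spearman correlation of 0.04, and the folds 0.07. The pileups had a correlation of 0.28 over the 424 regions below the ZFAT ceiling, and 0.33 over the 350 with no other ZFAT peak. All of these describe regions of the same pair of libraries. In all 19 regions of the Lck-Cre class the ZFAT peak was longer than its acetylation peak and had the higher P score. Among the 350 with no other ZFAT peak, 38 were longer and 18 had the higher score.

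**Figure D3:**
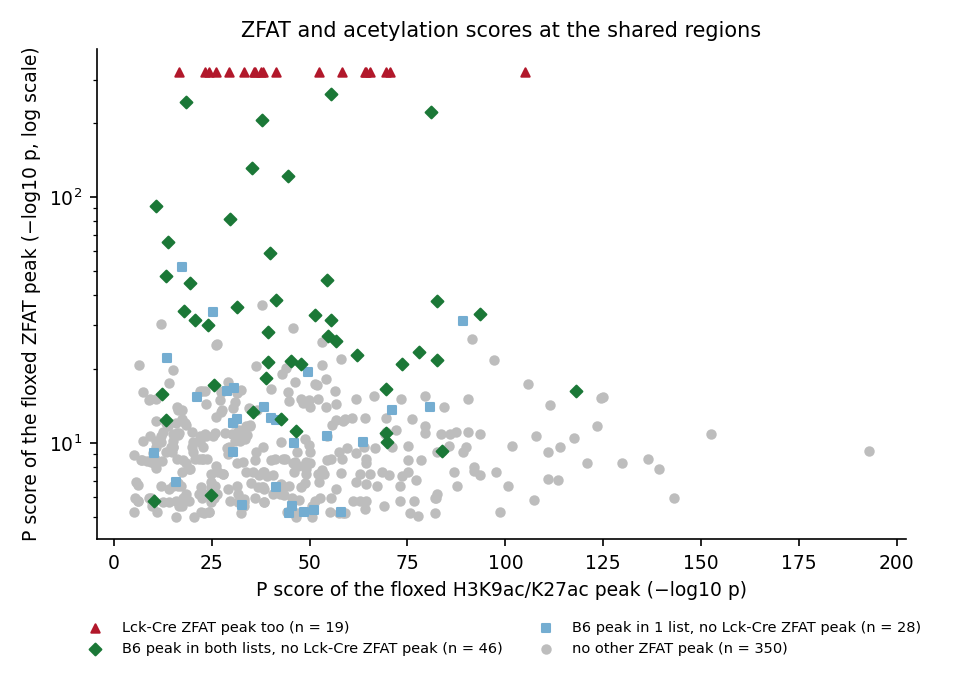
P score of the floxed ZFAT peak (log scale) against P score of its floxed H3K9ac/K27ac peak at the 443 regions, by class. The 19 regions with a Lck-Cre ZFAT peak lie along the ceiling of 323 at acetylation scores from 16.8 to 105. The 5 highest acetylation scores, to the right, go with ZFAT scores from 5.95 to 10.8, beside a median of 9.62 over the 443.

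The strongest regions showed the ZFAT signal in every line, with the lowest fold in Lck-Cre thymocytes. They were ranked by floxed P score and fold, a choice that favours high floxed values. At chr7:20147001-20147920 the ZFAT fold was 14.4 in Lck-Cre, 218 in B6 against input, 298 in B6 against IgG and 312 in floxed thymocytes, over an acetylation peak of fold 5.59. At chr7:134919978-134921457 it was 79.2 in Lck-Cre, 563 in B6 against input, 436 in B6 against IgG and 311 in floxed thymocytes, with an acetylation fold of 12.1. At chr9:99468648-99469455 it was 37.2 in Lck-Cre, 494 in B6 against input, 368 in B6 against IgG and 278 in floxed thymocytes, with an acetylation fold of 15.6. At these 3 positions the Lck-Cre fold was the lowest of the 4 ZFAT values. The pair on chromosome 2 was alike, with 14.6 in Lck-Cre, 227 and 152 in B6 against input and IgG, and 298 in floxed thymocytes at chr2:153474730-153476162. At chr2:153458164-153458672 the folds were 26.6 in Lck-Cre, 239 and 256 in B6 against input and IgG, and 211 in floxed thymocytes. The weakest in Lck-Cre among the 10 strongest regions was chr15:68089869-68090767, with a fold of 8.62 in Lck-Cre, 70.9 and 45.4 in B6 against input and IgG, and 156 in floxed thymocytes. None of the 10 lacked a peak in any ZFAT list.

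**Figure D4:**
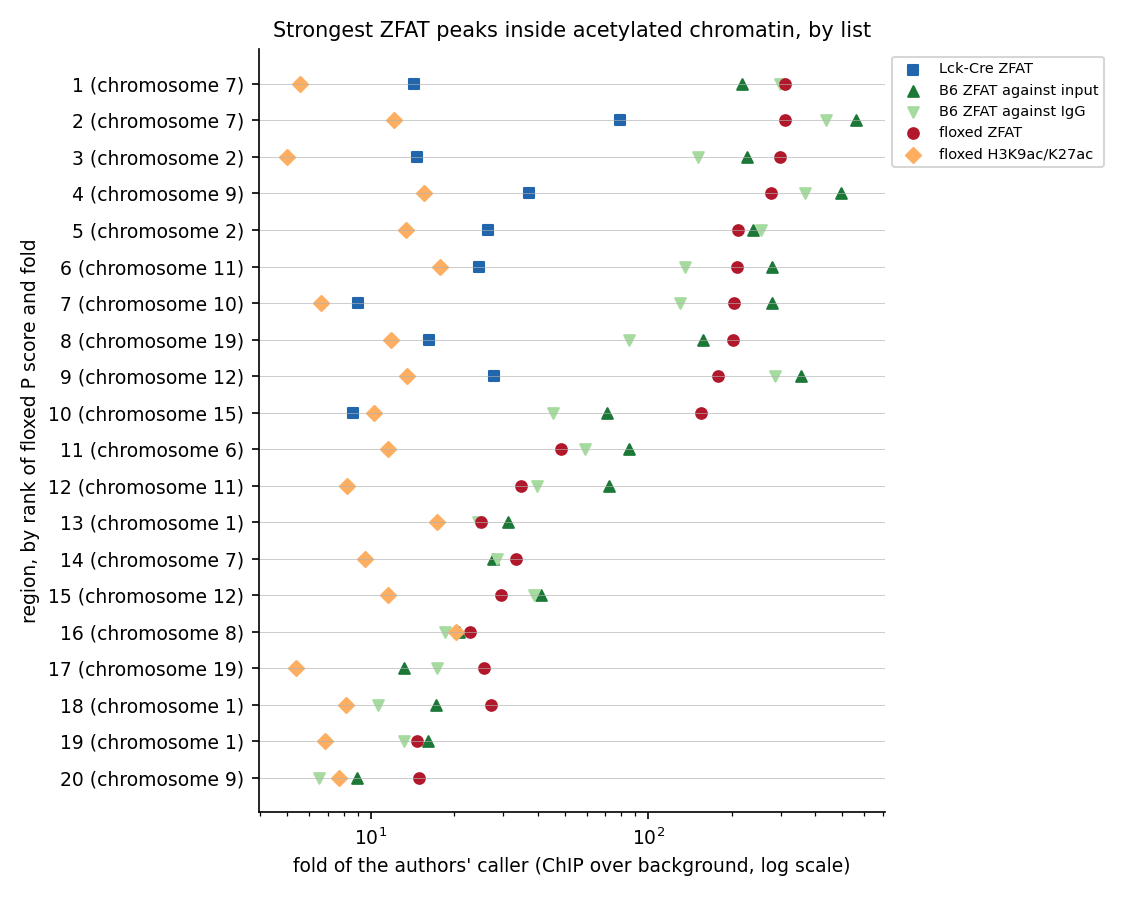
Fold of the authors' caller (log scale) at the 10 strongest regions with a Lck-Cre ZFAT peak (1 to 10) and the 10 strongest with peaks of both B6 lists and no Lck-Cre peak (11 to 20). Each row is 1 region, and each symbol 1 peak list with 1 library. In rows 1 to 10 the Lck-Cre ZFAT fold lies left of every B6 and floxed ZFAT fold.

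Over all 19 regions called in Lck-Cre, the ZFAT fold ranged from 4.63 to 79.2 with a median of 12.6 in Lck-Cre thymocytes, against 51.6 to 312 with a median of 156 in floxed thymocytes. It was lower in Lck-Cre at 19 of 19. The regions were chosen for a floxed ZFAT peak, so the floxed values can be high by that choice, and this count is a description only. The ratio of Lck-Cre to floxed fold had a median of 0.0897 and ran from 0.0400 to 0.255. The Lck-Cre pileup had a median of 85 over the 17 regions below its ceiling, and the floxed pileup, at the ceiling, was at least 136 to 349. Scaled to inferred depth, the Lck-Cre pileup was at most 0.178 to 0.994 of the floxed one, with a median bound of 0.465, and the bound was under 0.5 at 12 of 17. These are upper bounds, so they do not say by how much the fragment numbers differed. The Lck-Cre and floxed summits were a median of 12 bp apart. Fewer cells with ZFAT at these regions, less ZFAT in each cell, and differences between the libraries or their controls cannot be told apart here. Each side is 1 library of bulk chromatin.

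The other 424 peaks inside acetylated chromatin had no Lck-Cre ZFAT peak. If the floxed pileup and background of these peaks are multiplied by the ratio of inferred depths, 0.895, 376 of the 424 (88.7%) still pass the P threshold of 5, a check added after the data were seen. The same holds for 1072 of 1264 peaks outside (84.8%). The floxed values were chosen for passing this threshold, and the scaling, here and below, leaves out sampling noise. Such shares can therefore be high by construction, and the part of depth was not tested. The 424 included 11 of the 30 members with a score of 50 or more. The strongest of these was chr6:54987748-54988434, with a ZFAT fold of 85.3 in B6 against input, 59.1 in B6 against IgG and 48.5 in floxed thymocytes. Its pileup was 152 fragments in B6 and 186 in floxed thymocytes, and its acetylation fold was 3.99 in Lck-Cre and 11.5 in floxed thymocytes. At chr11:76220676-76220999 the ZFAT folds were 72.3 and 39.8 in B6 against input and IgG, and 34.9 in floxed thymocytes, over an acetylation fold of 8.25. At chr1:133807105-133807803 they were 31.2 and 24.4 in B6 against input and IgG, and 25.003 in floxed thymocytes. The B6 fold against input was above the floxed fold at 5 of the 10 strongest regions with both B6 lists and no Lck-Cre ZFAT peak. The lowest P score among these 10 was at chr9:99476246-99476628, with folds of 8.96 and 6.504 in B6 against input and IgG, and 15.002 in floxed thymocytes.

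At the regions shared with B6, the order of the median folds differed between the B6 controls. Over the 89 members with a B6 peak called against input, the median fold was 9.88 in B6 and 9.54 in floxed thymocytes, and it was lower in B6 at 34. Over the 69 with a B6 peak called against IgG, the median fold was 10.6 in B6 and 13.5 in floxed thymocytes, and it was lower in B6 at 43. Scaled to inferred depth, the B6 pileup was 1.65 times the floxed one (quartiles 1.38 and 1.94, over 70 regions below the ceiling in both) and was under the floxed one at 6. Being called in the shallower B6 library selects regions with high B6 values, so this ratio holds for called regions only. Summits were a median of 17 bp apart, and within 50 bp at 70 of 89. The part of depth in the members without a B6 peak was not tested. Multiplied by the ratio of depths, 0.419, the floxed values of 96 of those 354 (27.1%) would still pass the threshold, as would those of 254 of the 1223 outside (20.8%). Of the 168 members that would pass, 72 (42.9%) had a B6 peak called against input, against 37 of 291 peaks outside (12.7%). Of the 68 members with a P score of 20 or more, 13 had no B6 peak in either list. At scores from 20 to 50, 25 of 38 members and 11 of 25 peaks outside had a B6 peak in at least 1 list. At 50 or more it was 30 of 30 members and 20 of 21 peaks outside.

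Seen from the B6 and Lck-Cre lists, the overlap with floxed ZFAT inside acetylated chromatin differed between lists. Floxed acetylation held 18.5% of the 108 Lck-Cre ZFAT peaks. It held 19.2% of the 2000 B6 peaks called against input and 30.7% of the 427 called against IgG. How many of their peaks elsewhere met a floxed ZFAT peak was not counted, so the counts below are not read as a trait of acetylated chromatin. All 20 Lck-Cre ZFAT peaks in floxed acetylated chromatin met a member. Of the 384 B6 peaks called against input that lay in floxed acetylation, 90 met a member and 294 did not, and the highest P score among those 294 was 38.2. Of the 131 called against IgG, 69 met a member and 62 did not.

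H3K9me3 was nearly absent from the set. A floxed H3K9me3 peak met 2 of the 443 (0.45%, 95% interval 0.05% to 1.62%), against 75 of the 1276 outside (5.88%, 4.65% to 7.31%) and 4.48% of all floxed ZFAT peaks. Without peaks of high control background the share outside was 5.14% (65 of 1265). The 2 regions had ZFAT pileups near the median of 14 over the members below the P ceiling. At chr2:32467910-32468100 the pileups were 13 fragments for ZFAT, 14 for acetylation and 14 for H3K9me3. At chrX:45947279-45947481 they were 14 for ZFAT, 40 for acetylation and 10 for H3K9me3. Neither had a B6 or Lck-Cre peak of any kind. The members were chosen for acetylation, so this share also reflects how the acetyl marks and H3K9me3 lie to each other in these lists.

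The acetylation peaks that met a member were longer and stronger than the others. Longer peaks are more readily met by an overlap rule, so part of this gap can follow from the choice. The 443 regions met 447 of the 13016 floxed H3K9ac/K27ac peaks, and 439 of them met exactly 1. The median length was 383 bp for acetylation peaks with a member and 286 bp for the 12569 without, the median fold 10.3 and 8.57, and the median pileup 53 and 37 fragments. The acetylation control background had medians of 4.35 and 3.39 scaled fragments, so the control was higher there too. The 5 members under the highest acetylation scores had ZFAT P scores from 5.95 to 10.8 and pileups from 12 to 53. The medians over the members were 9.62 and, below the P ceiling, 14. The highest was chr1:90173851-90174118, with an acetylation fold of 11.1 and pileup of 287, and a ZFAT fold of 2.52, where the floxed ZFAT control stood at 20.4 scaled fragments. The others were chr7:16986660-16986816, chr2:72818715-72818951, chr9:57613121-57613312 and chr9:95855395-95855558, with acetylation folds from 17.9 to 29.6 and ZFAT folds from 3.76 to 5.51. None of the 5 had a ZFAT peak in another list.

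In Lck-Cre thymocytes, 75 of the 443 regions had an H3K9ac/K27ac peak (16.9%, 95% interval 13.6% to 20.8%), against 11 of the 1276 outside (0.86%) and 5.00% of all floxed ZFAT peaks. The members were chosen by floxed acetylation, so the gap to the peaks outside follows from that choice. The acetylation fold at these 75 regions had a median of 4.81 in Lck-Cre thymocytes and 13.5 in floxed thymocytes, and was lower in Lck-Cre at 75 of 75. Scaled to inferred depth, the Lck-Cre pileup was 0.470 of the floxed one (median, quartiles 0.393 and 0.537) and lower at 75 of 75. Since the regions were chosen for a floxed acetylation peak, the floxed values can be high by that choice, and these counts are a description only. At the other 368, the floxed acetylation values multiplied by the depth ratio of 0.613 would still pass the threshold at 358. Over all floxed acetylation peaks, 12.3% (1600 of 13016) were also called in Lck-Cre. That share counts acetylation peaks, whereas the 16.9% above counts ZFAT peaks, so they are not like measures. The whole Lck-Cre acetylation list was lower too. Its median fold was 4.86, against 8.62 for the floxed list, and its median unscaled pileup was 18, against 38.

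The share of acetylation peaks also called in Lck-Cre was higher where floxed acetylation was stronger, with or without a member. In the lowest quartile group of floxed acetylation scores, 2 of 52 peaks with a member (3.85%) and 59 of 3171 without (1.86%) were called in Lck-Cre. In the next group it was 4 of 88 with a member (4.55%) and 123 of 3196 without (3.85%), and in the one above it 11 of 124 (8.87%) with and 342 of 3124 (10.9%) without. In the highest group it was 63 of 183 with a member (34.4%, 95% interval 27.6% to 41.8%) and 996 of 3078 without (32.4%, 30.7% to 34.0%). The intervals with and without a member overlapped in all 4 groups. By ZFAT class, Lck-Cre acetylation was called at 3 of 19 regions with a Lck-Cre ZFAT peak (15.8%, 3.38% to 39.6%) and 15 of 46 with both B6 lists (32.6%, 19.5% to 48.0%). It was called at 6 of 28 with 1 B6 list (21.4%, 8.30% to 41.0%) and 51 of 350 with no other ZFAT peak (14.6%, 11.0% to 18.7%). The classes were not matched for acetylation score. The 3 with ZFAT peaks in every line were chr11:99091356-99092418, chr12:114238086-114238993 and chr5:130006789-130008017. Their acetylation folds were 5.78, 6.87 and 3.10 in Lck-Cre thymocytes and 17.8, 13.5 and 12.7 in floxed thymocytes.

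**Figure D5:**
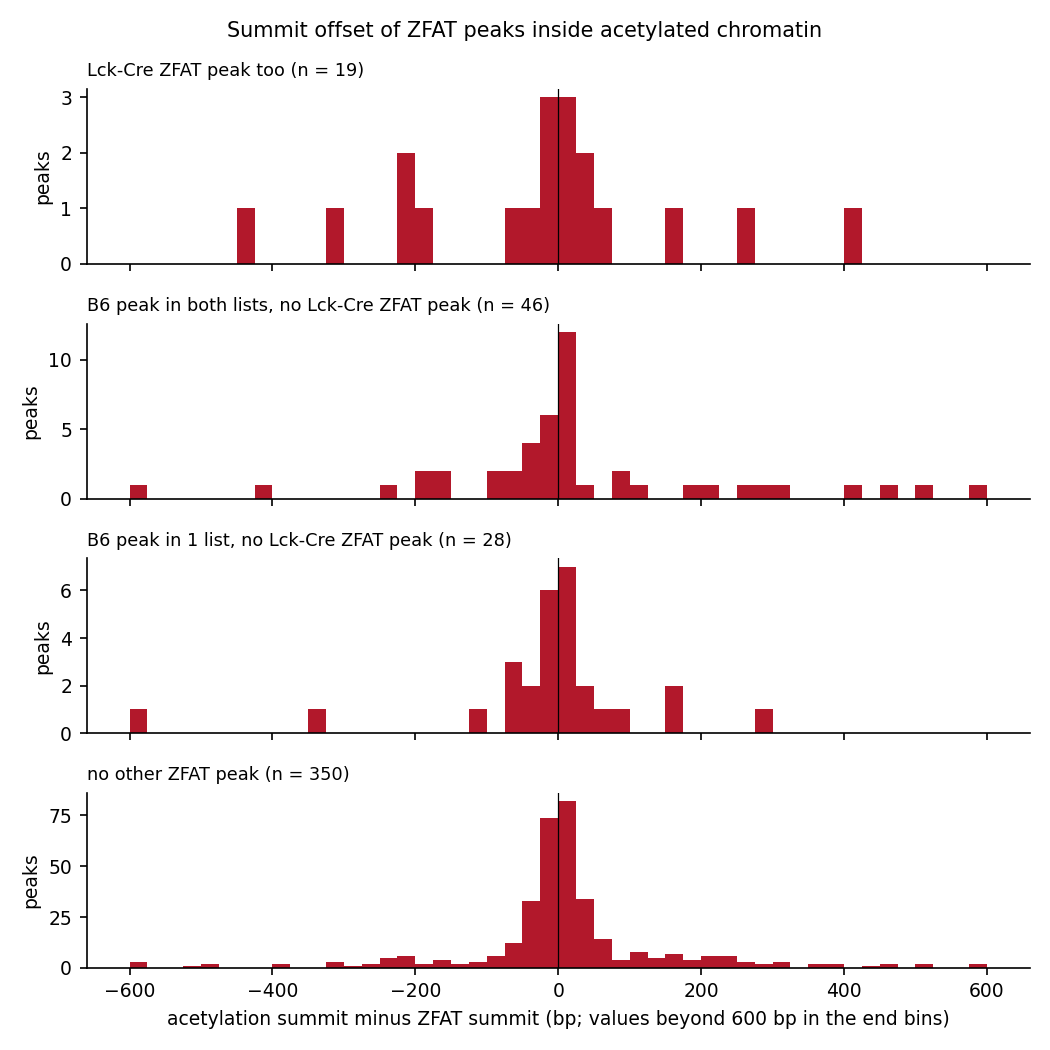
Offset of the nearest floxed acetylation summit from the floxed ZFAT summit (bp, in forward genome direction) for the 4 classes, as peaks per bin, with values beyond 600 bp in the end bins. The offsets centre near 0 in each class, and 8 of the 19 regions with a Lck-Cre ZFAT peak lie over 100 bp away, against 91 of the 350 with no other ZFAT peak.

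Between the classes, summit distances overlapped. The median was 51 bp (95% interval 8 to 218) in the Lck-Cre class, 51.5 bp (22 to 170) with both B6 lists, 36 bp (18 to 70) with 1 B6 list and 30.5 bp (25 to 37) with no other ZFAT peak. Summits over 100 bp apart made up 8 of 19, 17 of 46, 6 of 28 and 91 of 350 regions in the same order. The whole ZFAT peak lay in acetylation at 0 of 19, 21 of 46, 22 of 28 and 251 of 350 regions.

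The regions were spread over the genome with a few close pairs. Chromosome 11 held the most, 50 of its 114 floxed ZFAT peaks (43.9%, 95% interval 34.6% to 53.5%), and chromosome X had the lowest share, 9 of 56 (16.1%, 7.62% to 28.3%). Counted against acetylation, chromosome 11 had 40.3 members per 1000 acetylation peaks, within the range of 19.04 on chromosome 4 to 48.8 on chromosome 14. Of 423 pairs of neighbouring members on a chromosome, 4 had summits within 2000 bp and 18 within 20000 bp. The only acetylation peak with 2 members held chr11:77500092-77500302 and chr11:77500592-77501275, whose ZFAT folds were 5.62 and 5.56 in B6 against input, and 6.82 and 4.51 in floxed thymocytes. Their summits were 424 bp apart. The strong regions chr2:153458164-153458672 and chr2:153474730-153476162 lay 17120 bp apart, and chr11:84683044-84684591 and chr11:84693207-84694031 lay 9989 bp apart, with all 4 in the class with a Lck-Cre ZFAT peak. Smaller members lay beside strong ones at chr9:99476246-99476628, 7174 bp from the region of fold 278, and at chr7:134913288-134913729, 7131 bp from the region of fold 311.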

How the data were processed

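Peak lists of 6 ChIP libraries were used (7 lists, since B6 ZFAT was called against input and against IgG), in mm9. The authors called peaks per library with MACS (version not given) at a p threshold of 1e-05 and a fragment length of 150 bp, per the file headers. For the floxed and Lck-Cre lists the headers name no control. Deposited values are the authors' P and Q scores (−log10 of p and q) and fold ratio. CASAVA 1.8.1, Trimmomatic 0.22 and SAMtools 0.1.18 are named in the submitters' processing notes, and no aligner is named in the sources used here. Pileup and background were solved from fold = (pileup + 1)/(background + 1) and a Poisson p, matched to within 0.0001 of the P score. This gave whole pileups at 1696 of 1696 floxed ZFAT peaks below the ceiling. Depth was taken from the lowest background over 1870000000 bp. A peak counted as shared from 1 bp of overlap, with closed coordinates. The 6 control samples entered only through these backgrounds.

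Members, lists and bands were chosen with earlier results of these data known. Named regions were ranked by floxed P score and then fold: the 10 strongest members, the 10 strongest with both B6 lists but without Lck-Cre ZFAT, the 10 strongest with Lck-Cre ZFAT, the 10 strongest with Lck-Cre acetylation, those with H3K9me3, the 5 under the highest acetylation scores, the 3 nearest to each side of the boundary, and the acetylation peak with most members. Close pairs were chosen after their values were seen. Alternatives were summit inside, 50% coverage, a P score of 10 or more, a distance of 150 bp, and no control background of 20 or more. Python 3.11.15, numpy 2.4.6, pandas 2.3.3 and scipy 1.17.1 were used.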

Additional observations from a re-analysis of the deposited data

How the results depend on the processing

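No paired analysis was possible because each ChIP group has 1 library, and leaving out a replicate was not possible either. Of 95 values recomputed under another setting, 57 moved by less than their counting interval and 38 by more, with causes not tested. Choosing members by the ZFAT summit or by 50% coverage, matching within 150 bp or by summit, keeping standard chromosomes and dropping high control backgrounds moved none beyond it, though the Lck-Cre ZFAT shares moved by over 1.5 times, to 2.82% of members at 50% coverage and to 0.55% outside without high backgrounds. With a P score of 10 or more in both the ZFAT and the acetylation list, 29.96% of floxed ZFAT peaks (204 of 681) lay in acetylated chromatin. With the other list also held to 10 or more, 9.31% of these had a Lck-Cre ZFAT peak, 32.4% B6 against input, 28.9% B6 against IgG, 0% H3K9me3 and 11.3% Lck-Cre acetylation. Outside, with the ZFAT and the other list at 10 or more, 2.12% had a Lck-Cre ZFAT peak, 7.64% B6 against input and 4.03% B6 against IgG. Over the 210 members with a ZFAT score of 10 or more, the median fold was 7.86, P score 15.1 and summit distance 25 bp.

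In the P score bands under 10, 10 to 20, 20 to 50 and 50 or more, peaks outside had a Lck-Cre ZFAT peak in 0.12%, 0%, 0% and 52.4%, B6 against input in 1.86%, 2.12%, 36.0% and 95.2%, and B6 against IgG in 0.37%, 0.24%, 24.0% and 57.1%. H3K9me3 met 4.35% of them under 10, 8.00% from 20 to 50 and 38.1% at 50 or more, and Lck-Cre acetylation 1.65% from 10 to 20 and 0% in the bands above. In the pileup bands under 10, 10 to 19, 20 to 49 and 50 or more, added after the data were seen, B6 peaks called against input met 0%, 5.94%, 55.3% and 96.8% of members and 1.57%, 2.49%, 34.8% and 91.7% of the others. The B6 library had the lowest inferred depth, at 632000 fragments, and the part of depth in missing B6 peaks was not tested. A missing B6 peak at a small member does not show absence.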

Other observations

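Outside acetylated chromatin, 75 floxed ZFAT peaks met an H3K9me3 peak. Their summits were a median of 19 bp from an H3K9me3 summit, and within 50 bp at 59 of 75. Beside them, the 443 ZFAT peaks inside acetylated chromatin had a median distance of 32 bp to the acetylation summit. Both sets were chosen by overlap, and the difference was not tested.

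The 12 floxed ZFAT peaks outside acetylated chromatin with a Lck-Cre ZFAT peak had a median floxed fold of 20.4 and a range of 2.41 to 355, against a median of 156 and a range of 51.6 to 312 for the 19 inside it. Of the 12, 9 were below the P ceiling and had a median control background of 24.5 scaled fragments. For the 19 inside, all at the ceiling, the control background is not known.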
